A study of Rattus norvegicus with 18 samples.

Results

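The genes described here are Ncam1, Mag, Cntn2, Pmp22, and Mbp, a set of Schwann cell, myelin, and axon adhesion genes. Every probe set of the rat array annotated to 1 of these 5 symbols was followed, and that gave 9 probe sets of the 8799 on the array. mRNA expression was measured in a mid-shaft segment of femur from female Sprague-Dawley rats, which held cortical bone and marrow together with any callus. Young rats were 6 weeks of age at surgery, adult rats 26 weeks, and older rats 52 weeks. After a closed fracture of a femur that carried an intramedullary rod, tissue was taken at 3 days and at 1, 2, 4, and 6 weeks, and further rats gave tissue with no fracture. Every combination of age and time was measured on 1 array, 18 arrays in all, with 2 rats combined in each RNA sample. A time was thus replicated only by its 3 ages (n = 3 arrays), and an age only by its 5 times after fracture (n = 5 arrays). The rats with no fracture were sham controls drawn at random from those awaiting surgery, and whether they had received a rod is not clear from the sources used here.

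Schwann cells wrap peripheral axons in myelin. Ncam1 (NCAM) and Cntn2 (TAG-1, contactin-2) are immunoglobulin-type adhesion proteins of axons and glia, Mag is the myelin protein that faces the axon, and Mbp and Pmp22 are proteins of the compact myelin sheath. In cut or crushed peripheral nerve, Schwann cells turn down their myelin genes and raise NCAM. NCAM is also made by regenerating and denervated muscle fibers and by condensing mesenchyme, and Pmp22, also known as Gas3, is made by many fibroblasts. In RNA from a whole segment, fewer cells of a type and less RNA per cell cannot be told apart.

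Signals are in arbitrary intensity units, and 100 was used as the floor below which signals were treated as background. A probe set was tested when it reached 200 on at least 3 arrays, and 4669 probe sets did. Of the 9 probe sets here, 6 passed, and they stand for 4 genes. Mbp had 1 probe set (K00512_at), and it lay below the floor on all 18 arrays, between 17.7 and 91.8 with a median of 48.6. Mag had a probe set of the same kind (M22357_at), with signals of 6.0 to 23.5. The second probe set of Pmp22 (rc_AA924909_at) lay between 90.8 and 173, below the floor on 4 arrays and never at 200. These 3 probe sets stayed near background and were not tested, so these arrays give no measure of Mbp. The other 2 probe sets of Mag reached 200 on all 18 arrays, although M22357_g_at shares its source sequence with M22357_at. Detection calls of the array software were not used here, and whether signals above the floor also lay above nonspecific hybridization was not tested.

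**Figure D1:**
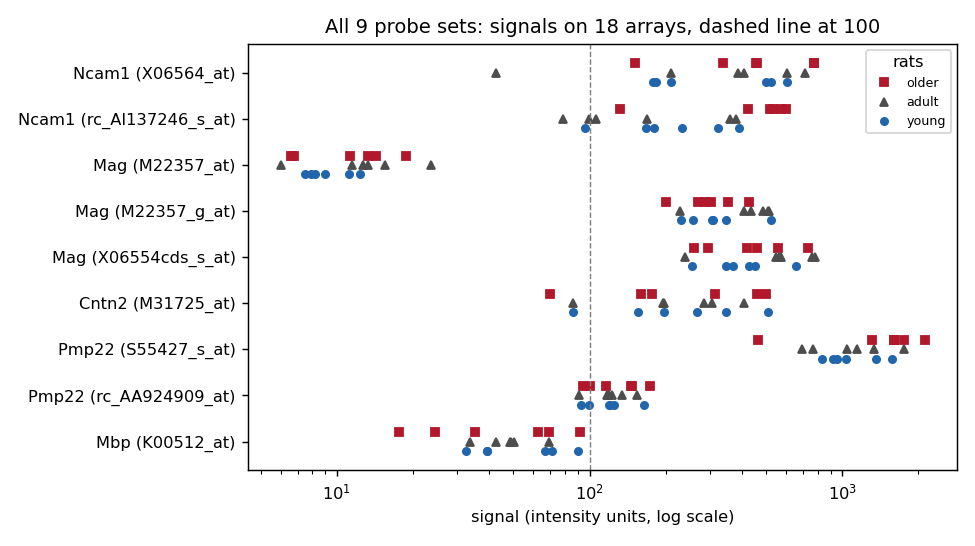
Signals of all 9 probe sets on the 18 arrays (horizontal axis, intensity units on a log scale), with squares for older, triangles for adult, and circles for young rats. Mbp and Mag M22357_at lie wholly left of the dashed floor of 100, while Pmp22 S55427_s_at lies between 466 and 2128.

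The signals of Cntn2 and of Mag X06554cds_s_at fell after fracture, and those of Ncam1 X06564_at and Pmp22 S55427_s_at rose. The other tested probe sets of Mag and Ncam1 did not pass against no fracture at any time. Upstream sequences are shown for Mag and Cntn2 beside Pmp22, whose signal moved the other way. Each is 160 bases from RefSeq (GRCr8), ending 90 bases before the start site that the RefSeq promoter table uses, and is written 5′ to 3′ on the gene's strand. The annotated spans of Mag and Cntn2 extend upstream of that start site almost to the window, while that of Pmp22 does not. Mag is at chr1:95291135-95291294 (minus strand), Cntn2 at chr13:46528116-46528275 (minus strand), and Pmp22 at chr10:48294682-48294841 (plus strand). Capitals mark matches on either strand to CANNTG (the E-box), ACAAAG (a SOX core), GCGTGGGCG or GCGGGGGCG (EGR motifs), or TATAAA.
Mag: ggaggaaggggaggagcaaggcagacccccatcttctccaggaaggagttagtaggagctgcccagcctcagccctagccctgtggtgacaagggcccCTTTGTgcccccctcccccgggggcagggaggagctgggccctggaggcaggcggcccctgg
Cntn2: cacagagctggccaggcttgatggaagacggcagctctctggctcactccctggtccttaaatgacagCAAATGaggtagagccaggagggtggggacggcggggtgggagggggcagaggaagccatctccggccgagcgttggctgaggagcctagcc
Pmp22: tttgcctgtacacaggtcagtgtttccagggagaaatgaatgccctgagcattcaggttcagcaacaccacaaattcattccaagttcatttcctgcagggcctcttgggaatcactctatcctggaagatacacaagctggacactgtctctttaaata
SOX10 and EGR2 are the factors that switch on myelin genes in Schwann cells, which is why their kinds of motif were looked for. Mag held 1 SOX core, a motif found in 10.9% of 33469 rat promoter windows of the same length. Cntn2 held 1 E-box, found in 50.4% of windows. No letters of these motifs matched in the Pmp22 window. The EGR motifs occurred in 0.251% and 1.22% of windows and TATAAA in 8.05%, and none of these occurred in the 3 windows shown. The 90 bases next to the start site were not scanned, so the windows cannot show whether TATAAA or another motif lies there. A match describes the letters only.

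The signal of Cntn2 fell at 3 days at every age and was higher than at 3 days at every later time. The array software had called this probe set absent on every array of the study, that is, not detected above its mismatch controls. The values below are therefore changes in the signal of the probe set, and whether they measure Cntn2 mRNA was not tested. In young rats its signal was 346 with no fracture and 85.7, 156, 198, 266, and 508 at 3 days and then at 1, 2, 4, and 6 weeks. In adult rats it was 408 with no fracture and then 86.2, 195, 197, 306, and 282. In older rats it was 501 with no fracture and then 69.7, 176, 160.4, 314, and 459. All 3 arrays of 3 days lay below the floor, and the arrays of 3 days, 1 week, 2 weeks, and 4 weeks all lay below the lowest array with no fracture. The mean was 80.5 ± 9.39 at 3 days and 418 ± 78.0 with no fracture (SD, n = 3 arrays each). The fitted change at 3 days was at least 4.14-fold lower (log2 -2.05 ± 0.24, SE, limma adjusted p = 2.4e-05). At 1 week the signal was 2.37-fold lower (log2 -1.24 ± 0.24, adjusted p = 0.0014) and at 2 weeks 2.24-fold lower (log2 -1.17 ± 0.24, adjusted p = 0.00295). The change did not pass the test at 4 weeks (log2 -0.49 ± 0.24, adjusted p = 0.27) or at 6 weeks (log2 -0.03 ± 0.24, adjusted p = 0.955). At 6 weeks the adult array, at 282, lay below its own array with no fracture, at 408, while the young array, at 508, lay above its own. From 3 days to 6 weeks the signal rose at least 4.04-fold (log2 2.01 ± 0.24, adjusted p = 6.45e-05). The young 6 weeks array had the highest Cntn2 signal of the 18, and its low ratio of 5′ to 3′ Gapdh is given below. The call from 3 days to 6 weeks was kept without that array, and its part was not tested further. In the order of the means, 1 week and 2 weeks overlapped, as did 4 weeks with 6 weeks and 6 weeks with no fracture, while 3 days lay apart from 1 week and 2 weeks apart from 4 weeks.

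Mag showed the same early loss on its brighter probe set, X06554cds_s_at, but less clearly on the other. On X06554cds_s_at the signal in young rats was 452 with no fracture and 254, 428, 348, 371, and 657 at the 5 later times in order. Adult rats gave 755 with no fracture and then 238, 572, 559.6, 779, and 547. Older rats gave 729.5 with no fracture and then 260.1, 294, 419.6, 458, and 557. The 3 arrays of 3 days were close to each other, at 250.5 ± 11.5, and all lay below the arrays with no fracture, at 646 ± 168 (SD, n = 3 each). This was a 2.51-fold fall (log2 -1.33 ± 0.27, adjusted p = 0.0011). At 1 week the difference was log2 -0.60 ± 0.27 (adjusted p = 0.116) and at 2 weeks log2 -0.54 ± 0.27 (adjusted p = 0.18), neither past the threshold. From 3 days to 6 weeks the probe set was up-regulated 2.34-fold (log2 1.22 ± 0.27, adjusted p = 0.00341).

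The second Mag probe set, M22357_g_at, did not pass at 3 days (log2 -0.50 ± 0.28, adjusted p = 0.156). In young rats it gave 257 with no fracture and 304, 348, 307, 229.7, and 524 afterwards. In adult rats it gave 512 and then 229, 487, 437, 508, and 407, and in older rats 303 and then 201, 287, 269, 353, and 426. Adult and older rats were therefore lower at 3 days than with no fracture, while young rats were higher. This probe set rose 1.86-fold from 3 days to 6 weeks (log2 0.90 ± 0.28, adjusted p = 0.0217), a call that was lost without any 1 of 4 arrays (young 6 weeks, adult 3 days, older 3 days, and older 6 weeks), with adjusted p of 0.0619 to 0.124. The young 6 weeks array had the highest signal of this probe set, and the 5′ Gapdh probe set there reached only 0.257 of the 3′ one, where the other arrays had 0.650 to 0.913. The same ratio for actin was 0.446 there, within the 0.372 to 0.842 of all arrays. Its part in the result was not tested beyond leaving it out, which gave log2 0.70 (adjusted p = 0.111). The 2 tested Mag probe sets correlated with r = 0.79 over the 18 arrays.

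**Figure D2:**
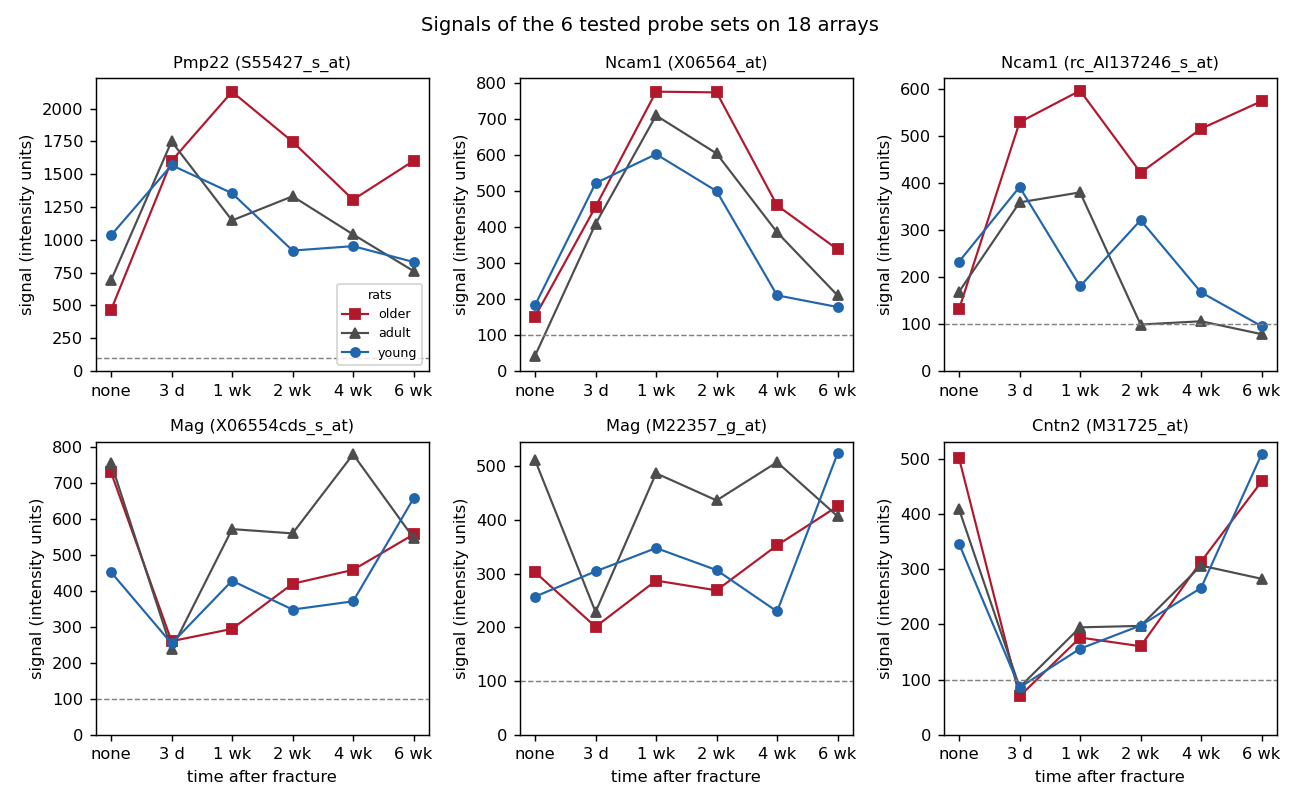
Signals (vertical axes, intensity units from 0) of the 6 tested probe sets at the 6 times, with 1 line per age and the floor of 100 dashed. Cntn2 and Mag X06554cds_s_at dip at 3 days at every age, Ncam1 X06564_at peaks at 1 week at every age, and Ncam1 rc_AI137246_s_at stays between 422 and 597 after fracture in older rats only.

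Ncam1 moved the other way on its brighter probe set, X06564_at. Young rats had 182.9 with no fracture and then 522, 602, 499.6, 210.4, and 178. Adult rats had 42.6 with no fracture and then 409, 709, 604, 385, and 210.0. Older rats had 151 with no fracture and then 456, 776, 774, 459.9, and 338. All 12 arrays from 3 days to 4 weeks lay above every array with no fracture, and the peak stood at 1 week at each age. The adult array with no fracture lay below the floor, so fold changes are given as at least. Ncam1 rose at least 3.27-fold at 3 days (log2 1.71 ± 0.28, adjusted p = 2.48e-04), at least 4.93-fold at 1 week (log2 2.30 ± 0.28, adjusted p = 1.28e-04), and at least 4.38-fold at 2 weeks (log2 2.13 ± 0.28, adjusted p = 1.97e-04). At 4 weeks it was still at least 2.38-fold higher (log2 1.25 ± 0.28, adjusted p = 0.014). That call was lost without 1 of 4 arrays (adult and older, at 4 weeks or with no fracture), with adjusted p of 0.0579 to 0.0941. At 6 weeks the change was log2 0.73 ± 0.28 (adjusted p = 0.154), and Ncam1 had fallen 1.97-fold since 3 days (log2 -0.98 ± 0.28, adjusted p = 0.0143). The fall from 3 days did not pass the test without the young 3 days array (log2 -0.77, adjusted p = 0.0718) or the young 6 weeks array (log2 -0.85, adjusted p = 0.0674).

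The second Ncam1 probe set, rc_AI137246_s_at, separated the ages. Its signals in older rats were 132 with no fracture and 529.5, 597, 422, 516, and 574 after fracture. Adult rats had 169 with no fracture and then 359, 380.3, 99.2, 106, and 78.7, and young rats had 233 and then 392, 181, 321, 168, and 95.6. All 5 arrays of older rats after fracture lay above all 10 of the adult and young rats, and at 6 weeks both of the younger ages were below the floor. No change against no fracture passed the test on this probe set, the nearest being 3 days (log2 1.28 ± 0.53, adjusted p = 0.0636). The suffix of its name, _s_at, marks a probe set that can match more than 1 transcript. Mag X06554cds_s_at, Pmp22 S55427_s_at, and some probe sets of other genes named below carry it too. The Ncam1 probe set rc_AI137246_s_at correlated with X06564_at by only r = 0.53 over the 18 arrays. Which NCAM transcripts either of the probe sets detects is not given in the sources used here.

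Pmp22 was the brightest member, and it rose at 3 days at every age. In young rats the signal of S55427_s_at was 1035 with no fracture and then 1569, 1355, 918, 952, and 831. In adult rats it was 692 and then 1749.7, 1148, 1332, 1041, and 762.2. In older rats it was 466 and then 1601, 2128, 1748, 1306, and 1602. The arrays of 3 days did not overlap those with no fracture, and from 2 weeks onward young rats lay below their own array with no fracture while older rats stayed above theirs by 2.80-fold or more. Pmp22 rose 2.36-fold at 3 days (log2 1.24 ± 0.33, adjusted p = 0.00642) and 2.15-fold at 1 week (log2 1.10 ± 0.33, adjusted p = 0.021). The call at 1 week was lost without the older 1 week array (log2 0.92, adjusted p = 0.11) or the older array with no fracture (log2 0.63, adjusted p = 0.119). In the order of the means, neighbouring times of Ncam1 and Pmp22 overlapped throughout, and those of the tested Mag probe sets overlapped except that 3 days lay apart from 1 week on X06554cds_s_at. Later changes of Pmp22 did not pass, at log2 0.89 ± 0.33 at 2 weeks (adjusted p = 0.0637), 0.65 ± 0.33 at 4 weeks (adjusted p = 0.286), and 0.54 ± 0.33 at 6 weeks (adjusted p = 0.391).

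**Figure D3:**
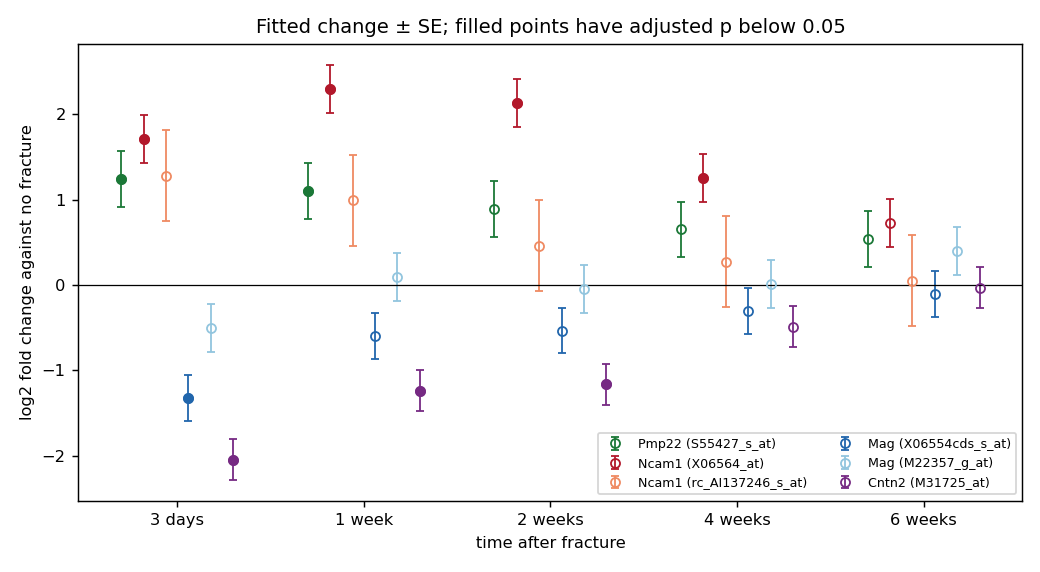
Fitted log2 fold change against no fracture (vertical axis) of the 6 tested probe sets at the 5 times after fracture, with bars of 1 SE and filled points where adjusted p is below 0.05. The filled points below 0 belong to Cntn2 (3 days to 2 weeks) and Mag X06554cds_s_at (3 days), and those above 0 to Ncam1 X06564_at (3 days to 4 weeks) and Pmp22 S55427_s_at (3 days and 1 week).

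Counted over the 6 tested probe sets, 2 rose and 2 fell at 3 days, when 24.5% of all tested probe sets rose and 19.7% fell. At 1 week 2 rose and 1 fell, against 14.3% and 10.5% of all. At 2 weeks 1 rose and 1 fell, against 12.8% and 8.27%. At 4 weeks 1 rose and 0 fell, against 5.05% and 1.43%, and at 6 weeks 0 rose and 0 fell, against 3.19% and 1.2%. By limma 1 member probe set had an unadjusted p under 0.05 at 6 weeks, and by an ordinary two-sample test 0 did. From 3 days to 6 weeks 3 rose and 1 fell, where 17.5% of all rose and 18.7% fell. Changes of this kind were thus common on these arrays, and the counts do not set the members apart. The 5 comparisons share the same 3 arrays with no fracture.

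Between the ages after fracture, Ncam1 and Pmp22 had their highest means in older rats, and Mag and Cntn2 did not. On rc_AI137246_s_at Ncam1 averaged 528 ± 67.5 in older rats and 205 ± 151 in adult rats (SD, n = 5 arrays each), at least 3.07-fold higher in older rats (log2 1.62 ± 0.35, adjusted p = 0.0378). It was the 1 member probe set called in that comparison, where 2.38% of all tested probe sets were higher in older rats. The call was lost without any 1 of 9 of the 15 arrays (young 4 weeks, and each adult or older array from 1 week to 6 weeks), with adjusted p of 0.0521 to 0.130. Against young rats, at 231 ± 121 (n = 5), the difference was log2 1.34 ± 0.35 and did not pass (adjusted p = 0.0657). On X06564_at Ncam1 averaged 561 ± 201 in older rats and 402 ± 194 in young rats (log2 0.57 ± 0.19, adjusted p = 0.112), and older rats were higher at 4 of 5 times. Pmp22 averaged 1677 ± 299 in older rats and 1125 ± 319.7 in young rats (log2 0.60 ± 0.18, adjusted p = 0.0852), and was higher in older rats at 5 of 5 times. Mag X06554cds_s_at averaged 398 ± 122 in older rats and 412 ± 151 in young rats (log2 -0.03 ± 0.20, adjusted p = 0.957), and Cntn2 averaged 236 ± 152 in older rats and 243 ± 162 in young rats (log2 -0.01 ± 0.19, adjusted p = 0.989). For older against young rats 0 of the 6 probe sets passed, against 0.15% of all tested, with 3 at an unadjusted p under 0.05 by limma and 2 by the ordinary two-sample test. Without the older 3 days array, 3 passed: both probe sets of Ncam1 (log2 1.58, adjusted p = 0.0156, and log2 0.69, adjusted p = 0.0423) and Pmp22 (log2 0.75, adjusted p = 0.0147). Without the young 3 days array Ncam1 X06564_at alone passed (log2 0.74, adjusted p = 0.0356). For adult against young rats 0 passed, against 0% of all tested, with 0 at an unadjusted p under 0.05 by either of the 2 tests.

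At 4 and 6 weeks the gap in Ncam1 was wider. On rc_AI137246_s_at the 2 late arrays averaged 545 in older rats and 132 in young rats (log2 2.07 ± 0.50, adjusted p = 0.0573). On X06564_at they averaged 399 in older rats and 194 in young rats (log2 1.03 ± 0.27, adjusted p = 0.0662), and the arrays of the 2 ages did not overlap on either probe set. Pmp22 averaged 1454 in older rats and 892 in young rats (log2 0.70 ± 0.29, adjusted p = 0.189). In this late comparison 0 of the 6 passed against 1.91% of all tested, with 3 at an unadjusted p under 0.05 by limma. Leaving out an early array (young 1 week, young 2 weeks, or adult 2 weeks) carried rc_AI137246_s_at past the threshold, with adjusted p of 0.0244 to 0.0348. A test of whether older rats exceeded young rats by more at the late times than at 3 days to 2 weeks gave 0 calls among the 6, against 0.0214% of all tested, with 1 at an unadjusted p under 0.05 (Ncam1 X06564_at, log2 0.76 ± 0.35, adjusted p = 0.507).

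With no fracture the order of the ages in Pmp22 was the other way round, at 466 in the older array, 692 in the adult, and 1035 in the young. Set against that order, the gap of older over young rats after fracture was wider by log2 1.75 ± 0.43 (adjusted p = 0.0465), the 1 member call where 1.58% of all tested probe sets were called in that direction. It rests on 1 array per age with no fracture, and it was lost without any 1 of 11 of the 16 arrays that could be left out (adjusted p 0.0515 to 0.0871). Fibrous matrix genes moved with it. Their summed signal with no fracture was 20267 in the older array and 93700 in the young array, and 10 of 13 tested were called in the same direction with a median log2 of 2.89, beside -0.04 over all tested probe sets. Their part in the result was not tested.

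The genes whose pattern over the 18 arrays was most like that of each member were the following. For Ncam1 X06564_at they were Mmp14 (r = 0.956), Lox (0.943), Marcks (0.941), Fn1 (0.941), and Acan (0.935), which are mostly genes that build or remodel extracellular matrix. For Pmp22 they were Aspn (0.940), Postn (0.929), Col3a1 (0.922), Tnn (0.917), and Grb10 (0.907), and the first 4 of these encode matrix proteins. For Cntn2 they were Ralgds (0.946), RT1-S3 (0.943), Rph3al (0.939), Lipe (0.930), and Ddr1 (0.920). For Mag X06554cds_s_at they were Ripor1 (0.948), Ift46 (0.922), Tpbpa (0.915), Gas7 (0.915), and Tff3 (0.910). These are correlations of log2 signals over samples that share their times and ages, and they were picked as the highest of 3877 tested probe sets with 1 symbol.

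Whether the segment held measurable nerve was checked on markers. Of the defining Schwann cell markers on the array, Sox10 was below the floor on all 18 arrays (mean 9.32). S100b, which cartilage and fat cells also make, averaged 369 on its brighter probe set (S53527mRNA_s_at). The Schwann cell and myelin list, which includes Sox10 and S100b, had 13 genes on the array, and 7 were tested. The tested genes had means above the floor, among them 379.65 for Cnp, 236 for Gjb1, and 213 for Prx. Ngfr averaged 1075 on U25650_f_at and 414 on X05137_at. Of the untested genes, Pou3f1 was below the floor on 18 arrays (mean 36.56), Ugt8 on 13 (94.06), and Egr2 on 10 (105.28). Erbb3 was below the floor on 6 arrays (mean 134.81) and Mal on 4 (145.58). Of the neurofilaments, Nefh was below the floor on 18 arrays, Nefm on 17, and Nefl on 14. The 16 neuron and axon genes on the array together summed to 1693 to 2919.7 after fracture and 2309 to 3150.2 with no fracture. The central nervous system markers on the array, Mog, Mobp, and Aqp4, were not tested, and their summed signal was between 74.0 and 208 after fracture and between 93.2 and 212 with no fracture.

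Among 13 other Schwann cell and myelin genes on the array, 7 were tested, and at 3 days 2 rose and 3 fell, with a median log2 of 0.03 beside 0.01 over all. The shares of all tested probe sets at 3 days were 24.5% up and 19.7% down, and those of later times are given above with the member counts. Mpzl1, a membrane protein that many cells make, rose at least 4.25-fold (log2 2.09 ± 0.30, adjusted p = 8.3e-05) and Cd9, a tetraspanin of many cell types, 2.47-fold (log2 1.30 ± 0.30, adjusted p = 0.00254). Ngfr, the p75 neurotrophin receptor that Schwann cells raise after injury, fell 4.18-fold on U25650_f_at (log2 -2.06 ± 0.47, adjusted p = 0.00257) and 1.74-fold on X05137_at (log2 -0.80 ± 0.30, adjusted p = 0.0392). S100b fell 2.40-fold (log2 -1.26 ± 0.48, adjusted p = 0.0416). Its signals at 3 days were 126.5 in older, 134.3 in adult, and 36.5 in young rats, against 1070.3 in older, 219.5 in adult, and 23.8 in young rats with no fracture, so that the groups overlapped and the young arrays were below the floor in both. Gjb1, the connexin 32 of Schwann cells and liver, fell at least 2.04-fold (log2 -1.03 ± 0.33, adjusted p = 0.0203) and, like Cnp and Prx, was picked for mention after its value was seen. Cnp, an enzyme of myelin-forming cells, did not pass at any time (log2 0.03 ± 0.31 at 3 days, adjusted p = 0.952), nor did Prx, the periaxin of myelinating Schwann cells (log2 0.13 ± 0.30, adjusted p = 0.734). At 1 week 1 of the 7 rose and 0 fell, at 2 weeks 2 rose and 1 fell, at 4 weeks 1 rose and 0 fell, and at 6 weeks 0 were called by limma. In older against young rats at 4 and 6 weeks S100b was 3.29-fold higher (log2 1.72 ± 0.33, adjusted p = 0.0263). It was the 1 call among the 7, where 1.91% of all tested probe sets were called in either direction. With no fracture the older array was already above the young array, at 1070.3 against 23.8.

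Of 18 axon adhesion genes on the array 10 were tested, and at 3 days 3 rose and 1 fell (median log2 0.29), where 24.5% of all rose and 19.7% fell. Thy1, an adhesion glycoprotein of axons and also of fibroblasts, rose 5.86-fold on rc_AA874848_s_at (log2 2.55 ± 0.34, adjusted p = 5.66e-05). On that probe set it was still 2.70-fold higher at 6 weeks (log2 1.43 ± 0.34, adjusted p = 0.0282). The other Thy1 probe set, X02002_at, also rose at 3 days (log2 2.35 ± 0.37, adjusted p = 1.85e-04) but did not pass at 6 weeks (log2 1.10 ± 0.37, adjusted p = 0.107). Cdh2, or N-cadherin, rose at least 5.03-fold at 3 days (log2 2.33 ± 0.36, adjusted p = 1.59e-04). The F-spondin gene Spon1 rose at least 2.44-fold at 1 week (log2 1.28 ± 0.42, adjusted p = 0.0366), and L1cam, which binds NCAM on axons, was 1.95-fold lower at that time (log2 -0.96 ± 0.32, adjusted p = 0.0369). At 1 week 3 of the 10 rose and 1 fell, against 14.3% and 10.5% of all tested probe sets. At 2 weeks 2 rose and 0 fell, against 12.8% and 8.27%. At 4 weeks 2 rose and 0 fell, against 5.05% and 1.43%. At 6 weeks 1 rose and 0 fell, against 3.19% and 1.2%. Of the relatives of the members 2 were tested, and Emp1, which belongs to the Pmp22 family, rose 3.06-fold at 3 days (log2 1.61 ± 0.38, adjusted p = 0.00314).

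Of 10 receptors and partners of NCAM and MAG on the array 7 were tested, and at 3 days 5 rose and 0 fell, with a median log2 of 1.24. Over all tested probe sets, 24.5% rose and 19.7% fell at 3 days, 14.3% and 10.5% at 1 week, and 12.8% and 8.27% at 2 weeks. Ptn, a growth factor, rose at least 8.02-fold (log2 3.00 ± 0.46, adjusted p = 1.45e-04), and Fgfr1, the receptor through which NCAM can signal, rose 3.29-fold (log2 1.72 ± 0.43, adjusted p = 0.0044). At 2 weeks Ptprz1, the phosphatase that binds Ptn, was at least 2.88-fold higher (log2 1.52 ± 0.34, adjusted p = 0.00461) and Fyn, a kinase downstream of NCAM, 2.62-fold (log2 1.39 ± 0.29, adjusted p = 0.00303). At 1 week 3 of the 7 rose and 0 fell, at 2 weeks 4 and 0, and at 4 weeks and 6 weeks 0 were called. Of 16 neuron and axon genes only 5 were bright enough to be tested, and at 3 days 0 rose and 2 fell (median log2 -0.24). Npy, a peptide of sympathetic nerve fibers and marrow cells, fell 4.88-fold at 1 week (log2 -2.29 ± 0.40, adjusted p = 7.07e-04). Mapt, the axonal tau protein, fell 2.14-fold at 3 days on rc_AA957930_s_at (log2 -1.10 ± 0.28, adjusted p = 0.00586). It also fell on rc_AI227608_s_at (log2 -1.06 ± 0.34, adjusted p = 0.0203), but X79321_at did not pass (log2 -0.67 ± 0.27, adjusted p = 0.0584).

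Markers of other tissues moved at the same times as the members, and at 3 days 24.5% of all tested probe sets rose and 19.7% fell. At 3 days 13 of 14 tested genes of mature skeletal muscle fell and 0 rose, and their summed signal lay between 40892 and 66635 at 3 days and between 103828 and 263432 with no fracture. All 7 tested erythroid genes and all 6 neutrophil genes fell, with sums of 8077 to 18457 and 1375 to 15164 at 3 days against 76500 to 110826 and 44475 to 86996 with no fracture. By 6 weeks the sums had come back to 42837 to 104288 for erythroid and 12503 to 61393 for neutrophil genes. Mag and Cntn2 had their lowest means at 3 days, the time at which the muscle sum was also lowest. At 1 and 2 weeks, when Cntn2 was still lower, the 7 erythroid and 6 neutrophil genes were lower too, while 1 and 0 of the 14 muscle genes were. Of all tested probe sets, 14.3% rose and 10.5% fell at 1 week, and 12.8% rose and 8.27% fell at 2 weeks. Fibrous matrix genes rose, 11 of 13 at 3 days and 13 of 13 at 1 week, with sums of 135195 to 163663 at 3 days against 20267 to 93700 with no fracture, at the times when Ncam1 and Pmp22 were also higher. Of the genes of regenerating and denervated muscle 2 of 9 rose and 0 fell at 3 days and 3 rose and 0 fell at 1 week, and their sum was 24623 to 39423 at 1 week against 4641 to 24561 with no fracture. Of the genes of bone matrix, the labelled tissue, 4 of 6 rose and 1 fell at 3 days, and their sum was 70079.6 to 90228 at 3 days against 21630 to 65973 with no fracture. Lymphocyte genes summed to 459 to 679 at 3 days against 755 to 1089.6 with no fracture, with 1 of 3 tested lower. The part of any of these in the changes of the members was not tested.

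**Figure D4:**
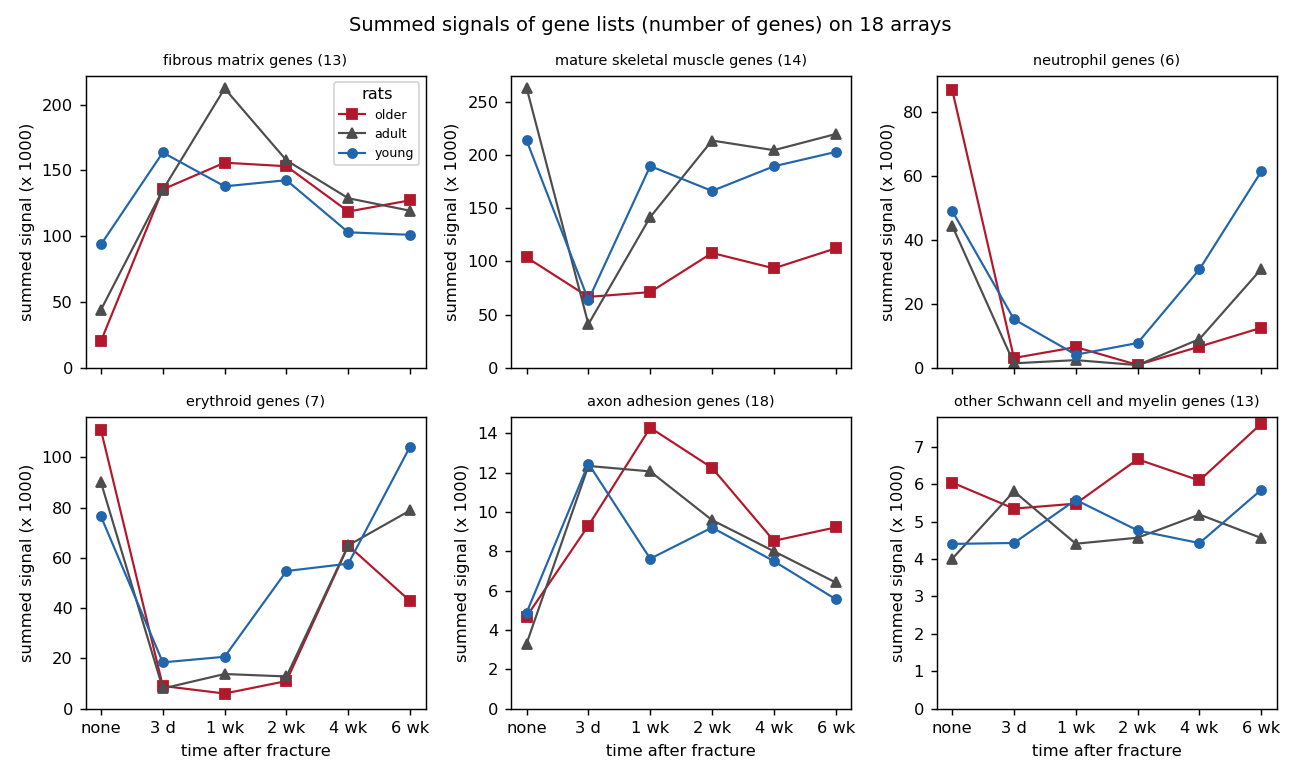
Summed signals of 6 gene lists (vertical axes, 1000 intensity units from 0) on the 18 arrays by time, with 1 line per age. Muscle, neutrophil, and erythroid sums are low at 3 days, fibrous matrix and axon adhesion sums are high, and the other Schwann cell and myelin sum stays between 4004 and 7616. Sums add raw signals, so the brightest genes weigh most. In the Schwann cell and myelin sum these are Cd9 (mean 2162.5), which rose at 3 days, and Ngfr (mean 1075), which fell. In the axon adhesion sum it is Thy1 (mean 5215).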

How the data were processed

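Each deposited value is the intensity of a probe set on an Affymetrix rat array, computed by the authors in Microarray Suite 5.0 and scaled to an average of 500 per array. The genome build behind the deposited files is not given in the sources used here, and upstream sequences are from RefSeq (GRCr8). Array medians lay between 137.2 and 182.6, with 37.2% to 43.3% of probe sets under 100. The number of arrays limits the precision. Of 8799 probe sets, 59 were controls and 7018 had 1 symbol, 308 several, and 1473 none in the platform annotation, with 6994 updated through gene identifiers in RefSeq. Signals below 100 were set to 100 before log2. The 4669 probe sets tested reached 200 on at least 3 arrays.

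The 18 arrays were fitted with terms for time and age in limma (version 3.58.1, R version 4.3.3), using trended eBayes moderation and two-sided tests. For ages, a fit of the 15 arrays taken after fracture had age and time terms, and further fits were made by period (3 days to 2 weeks, 4 and 6 weeks) with an age by period term, and on 18 arrays with an age by fracture term. P-values were adjusted over all 4669 (Benjamini-Hochberg, threshold 0.05). They rest on how arrays of other ages or times scatter, not on scatter between rats. Fold changes are of mean log2 floored signals, and "at least" marks those where the lower group alone had arrays below 100. The members and gene lists were chosen with earlier results of these data known. In a list each gene is represented by its brightest probe set, and a list sum adds the signals of all its genes on the array. Up to 4 called genes with the largest change were named per nerve list, and for each member the 5 probe sets with the highest correlation. Alternatives were a floor of 20 or 200, a filter at 500 or none, quantile or equal-median scaling, robust moderation, models without the age or time term, other sets of arrays, an ordinary two-sample test, and each array or age left out. Steps were tested on simulated data. Further series of arrays of the study were not used here. Plots used matplotlib 3.10.9 under Python 3.11.15.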

Additional observations from a re-analysis of the deposited data

Results flagged for a closer look

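On the Mag probe set M22357_g_at the adult 3 days array, at 229, stood apart from the other 4 adult arrays after fracture, at 407 to 508. The gap took up 0.722 of the range of the 5 log2 values, above the 95% limit of Dixon's test. About 1 group in 20 passes that limit by chance, and every tested probe set was scanned at each age. The 5 values come from different times after fracture and are not replicates, so the flag marks a gap only. For Pmp22 S55427_s_at the gap of older over young rats differed between arrays after fracture and arrays with no fracture, by log2 1.75 (limma adjusted p = 0.0465), with 1 array per age with no fracture.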

How the results depend on the processing

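Under every alternative run, each called member kept its direction. The calls at 3 days for Cntn2, Mag X06554cds_s_at, and Ncam1 X06564_at held in every alternative that tested them, and Pmp22 at 3 days was lost by the two-sample test (adjusted p = 0.0781) and without the adult rats (adjusted p = 0.0958). Over all tested probe sets the two-sample test called 848 at 3 days, 1 at 1 week, 18 at 2 weeks, 0 at 4 weeks, and 0 at 6 weeks, where limma called 1144 up and 918 down at 3 days and 149 up and 56 down at 6 weeks. The number of member probe sets called moved as follows. Against no fracture, the two-sample test called 0 at 1 week, 0 at 2 weeks, and 0 at 4 weeks. At 2 weeks the filter at 500, the 6 arrays alone, and leaving the older rats out each called 1. At 4 weeks the floor of 200, no filter, the 6 arrays alone, and leaving out the adult or the older rats each called 0. At 6 weeks leaving the young rats out called 1, and for 6 weeks against 3 days leaving the adult rats out called 2. For older against adult rats no filter, no time term, and the two-sample test each called 0. For the departure of older from young rats the floor of 20 and no filter each called 0.

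With 1 array left out, the calls ranged from 0 to 2 at 4 weeks, 0 to 1 at 6 weeks, 2 to 6 for 6 weeks against 3 days, 0 to 3 for older against young, 0 to 2 for older against adult, 0 to 1 for the late comparison of older with young, and 0 to 1 for the departure from no fracture. Without the young array with no fracture, Pmp22 also passed at 2 weeks (log2 1.30, limma adjusted p = 0.00784) and at 4 weeks (log2 1.06, adjusted p = 0.0481). Ncam1 X06564_at then passed at 6 weeks (log2 1.06, adjusted p = 0.0354). Pmp22 passed at 2 weeks as well without the young 2 weeks array (log2 1.13, adjusted p = 0.0463) or without the young rats (log2 1.43, adjusted p = 0.0232). Ncam1 rc_AI137246_s_at passed at 3 days under some alternatives, among them the floor of 200 (log2 1.00, adjusted p = 0.0214). The causes of these shifts were not tested. The size of the Cntn2 change at 3 days follows the floor, at log2 -2.37 with a floor of 20 and -1.05 with a floor of 200. The departure could not be recomputed without the older or the young array with no fracture. No paired analysis was possible because each age and time has 1 array, all under the same series label, so no replicate numbers differ within a group. Age was already a term in the fits of time.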
